A study of Homo sapiens with 6 samples.

Results

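The genes examined were the 10 sensors and adaptors of double-stranded RNA named RIGI, IFIH1, DHX58, TLR3, TICAM1, MAVS, TBK1, IRF3, EIF2AK2 and ZBP1, out of 19775 genes that at least 1 array probe set named alone. They were chosen by name as a pathway, with earlier results of these data known. Each was followed on every probe set that the platform annotation assigned to it and to no other gene, which gave 22 probe sets out of 54613 tested. RNA of the human medulloblastoma line ONS-76 was hybridized to Affymetrix U133 Plus 2.0 arrays to ask which genes respond to loss of the histone demethylase KDM1A (LSD1). The siKDM1A group (n = 3 arrays, replicates a, b and c) was transfected with 1 siRNA against KDM1A, and the mock group (n = 3 arrays, replicates a, b and c) received transfection reagent without any siRNA. Both groups are the same cell line, and the study describes independent transfections. The sample labels give harvest at 48 h, while the text of the study gives a later time. The siRNA is itself a double-stranded RNA, and because mock cells received none, its delivery and the loss of KDM1A cannot be told apart in any value given here.

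Double-stranded RNA is a sign of viral infection and, when made from a cell's own repeats, of relaxed repression. In the cytosol it is bound by the helicases RIG-I (RIGI) and MDA5 (IFIH1), which act through the mitochondrial adaptor MAVS, and in endosomes by TLR3, which acts through the adaptor TRIF (TICAM1). Both routes reach the kinase TBK1 and the transcription factor IRF3, which switches on type I interferon and a set of antiviral genes, while PKR (EIF2AK2) stops translation and ZBP1 leads to cell death. Several of the sensors are themselves induced by interferon.

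The deposited value of a probe set is a log2 level from RMA (robust multi-array average), on which 1 unit stands for a 2-fold difference. Each probe set hybridizes with its own efficiency, so levels of different genes were not ranked against each other. Levels across probe sets served to choose the brightest of a gene (highest mean level) and to average marker lists. They also served to place probe sets against array quartiles and medians and to filter dim ones. The array medians lay between 5.09 and 5.16 and the lower quartiles between 3.63 and 3.70, and no 2 arrays held the same values. The targeted gene KDM1A had levels of 6.25, 6.34 and 6.31 in siKDM1A cells and 9.50, 9.57 and 9.49 in mock cells, which is 9.33-fold lower (log2 fold change -3.22, SE 0.0818, limma adjusted p = 7.1e-07). The labels call the target KDM5A with LSD1 beside it. None of the 5 probe sets of KDM5A passed the test, the nearest of them being at a log2 difference of -0.39, with a limma adjusted p of 0.056. Of 10 neural lineage markers 7 (VIM, TUBB3, SOX2, ZIC1, ZIC2, MAP2 and NES) were above the median on every array, PAX6 and OTX2 were below it on every array and ATOH1 on 5, and 1 was called higher (MAP2, log2 fold change 1.12) and 3 lower (ZIC1, ZIC2 and SOX2, -0.39 to -0.43). Of 5 blood and endothelial markers PTPRC and CD14 were below the median on every array, CD3E and VWF on 1 and PECAM1 on none, and PECAM1 was called higher (0.35). Of 4 epithelial markers KRT8, KRT18 and CDH1 were above the median on every array, EPCAM was below the lower quartile, and none was called. The mean log2 level was 7.47 to 7.53 in siKDM1A arrays and 7.47 to 7.59 in mock arrays for the neural list. It was 5.06 to 5.21 in siKDM1A arrays and 4.96 to 5.06 in mock arrays for the blood and endothelial list, and 8.01 to 8.10 in siKDM1A arrays and 7.77 to 7.89 in mock arrays, without overlap, for the epithelial list. The part of these markers in the members' values was not tested. The difference between 3' and 5' control probe sets of ACTB was 0.718 to 1.41 in siKDM1A arrays and 0.857 to 1.43 in mock arrays, so RNA quality on this measure overlapped between the groups.

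Of the double-stranded RNA sensors, RIGI and TLR3 rose in siKDM1A cells, and none of the other 8 genes passed the test on any probe set. The arrays measured bulk RNA, so more cells expressing a gene and more RNA per cell cannot be told apart. Limma called 5 of the 22 member probe sets higher (22.7%) and 0 lower, against 2.18% of all probe sets called higher, 3.73% called lower and 5.91% called in either direction. The 5 calls were all 3 probe sets of RIGI and 2 of the 3 of TLR3. At an unadjusted p under 0.05 there were 7 member probe sets, the 5 above with 1 of TICAM1 (higher) and 1 of MAVS (lower). The median log2 fold change was 0.12 over the member probe sets and 0.01 over all probe sets, and 15 of the 22 were above 0, against 53.5% of all probe sets. In 7 member probe sets every siKDM1A array lay above every mock array and in 1 every siKDM1A array lay below, which was the case for 11.1% and 13.4% of all probe sets.

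**Figure D1:**
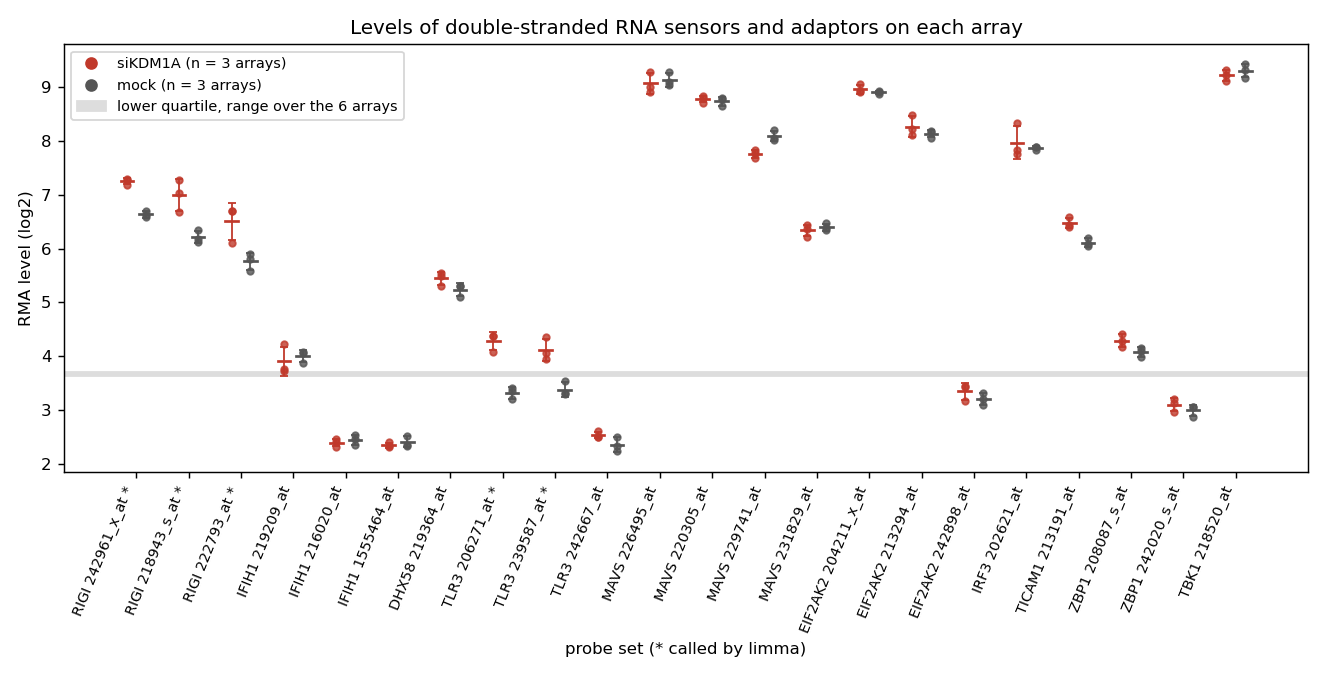
Log2 RMA level of each member probe set on each of the 6 arrays, siKDM1A (red) left of mock (grey), with the mean and SD of each group (n = 3). The RIGI probe sets lie above the grey band of array lower quartiles in both groups, whereas the called TLR3 probe sets cross it, with mock levels of 3.20 to 3.54.

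RIGI encodes RIG-I, the cytosolic helicase that binds short double-stranded RNA with a 5' triphosphate (chr9:32455302-32526196, GRCh38.p14). Its probe set 242961_x_at had log2 levels of 7.28, 7.19 and 7.30 in siKDM1A cells and 6.69, 6.63 and 6.58 in mock cells. The lowest siKDM1A array lay 0.49 above the highest mock array. This was a 1.54-fold increase (95% interval 1.35 to 1.75; log2 fold change 0.62, SE 0.0841, limma adjusted p = 0.0033).

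The second probe set of RIGI, 218943_s_at, had log2 levels of 7.04, 7.28 and 6.69 in siKDM1A cells and 6.13, 6.18 and 6.34 in mock cells, so siKDM1A replicate c was the closest to mock. The log2 fold change was 0.78 (SE 0.144, limma adjusted p = 0.014), or 1.72-fold. The third, 222793_at, had log2 levels of 6.11, 6.71 and 6.69 in siKDM1A cells and 5.59, 5.89 and 5.81 in mock cells, with siKDM1A replicate a the lowest of its group. The log2 fold change was 0.74 (SE 0.162, limma adjusted p = 0.029), or 1.67-fold. The groups did not overlap on any RIGI probe set, and the siKDM1A array nearest to mock was a different replicate on each.

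These calls did not rest equally on the arrays. Leaving out any single array kept 242961_x_at past the threshold (limma adjusted p 0.0097 to 0.025). The probe set 218943_s_at lost its call without mock replicate a (limma adjusted p = 0.053) or mock replicate b (0.054), and 222793_at lost it without siKDM1A replicate b, siKDM1A replicate c or any 1 of the 3 mock replicates (limma adjusted p 0.060 to 0.102). Without mock replicate a or without mock replicate b, 3 member probe sets in all stayed past the threshold. The one-way analysis of variance named in the methods, which takes each spread from that probe set alone, called 242961_x_at (adjusted p = 0.035) and no other member, while calling 0.504% of all probe sets higher. The probe set 242961_x_at carries a suffix that marks probes able to bind other transcripts too, and the part of such binding in the value was not tested.

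The RIGI promoter is shown because RIGI was called on every probe set. RefSeq (GRCh38.p14) gave a promoter for 7 of the 10 genes. Each was searched on both strands, from 250 bases before to 50 bases after the RefSeq start, for the core of the interferon-stimulated response element (GAAANNGAA, found in 8.29% of 27305 promoters), for AP-1 (TGANTCA, 7.76%) and for an NF-kB motif (10.8%). The stretch below lies on the minus strand at chr9:32526197-32526446 and ends at the base before the start, and its capitals mark the NF-kB match at positions -76 to -67.
RIGI promoter: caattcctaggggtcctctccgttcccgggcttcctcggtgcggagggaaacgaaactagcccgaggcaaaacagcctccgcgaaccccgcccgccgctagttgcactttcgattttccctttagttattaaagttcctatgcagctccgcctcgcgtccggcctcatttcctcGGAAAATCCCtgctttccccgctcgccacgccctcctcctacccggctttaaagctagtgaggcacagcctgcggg
Neither of the other motifs matched in this window. A match of letters is a description and not evidence of binding.

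TLR3 encodes the endosomal receptor for double-stranded RNA (chr4:186069156-186088073). Its probe set 206271_at had log2 levels of 4.08, 4.38 and 4.38 in siKDM1A cells and 3.41, 3.35 and 3.20 in mock cells. All siKDM1A arrays were above all mock arrays, by at least 0.67. The log2 fold change of 0.96 (SE 0.110, limma adjusted p = 0.0014) had a 95% interval of 0.71 to 1.21.

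The second TLR3 probe set, 239587_at, had log2 levels of 4.05, 4.35 and 3.95 in siKDM1A cells and 3.29, 3.31 and 3.54 in mock cells, again without overlap. Its log2 fold change was 0.735 (SE 0.123, limma adjusted p = 0.0092). The third, 242667_at, had log2 levels of 2.60, 2.49 and 2.50 in siKDM1A cells and 2.50, 2.32 and 2.23 in mock cells, below the lower quartile on all 6 arrays, and did not pass the test (log2 fold change 0.18, limma adjusted p = 0.371). Leaving out any single array kept both calls (limma adjusted p 0.0019 to 0.011 for 206271_at and 0.012 to 0.042 for 239587_at).

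On both called TLR3 probe sets every mock level was below the lower quartile of its array, and every siKDM1A level, though above that quartile, was below its array's median. No detection call was made, so whether these mock levels exceeded background hybridization was not tested, and the fitted differences of TLR3 are not given as folds or ranked against those of RIGI. A filter on dim probe sets removed all 3 TLR3 probe sets from the test. By the one-way analysis of variance neither was called (adjusted p = 0.064 and 0.129).

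The TLR3 promoter is printed from position -110 to position 10, on the plus strand at chr4:186069046-186069165. The capitals mark the interferon-stimulated response element core, read on the opposite strand, at positions -3 to +6.
TLR3 promoter: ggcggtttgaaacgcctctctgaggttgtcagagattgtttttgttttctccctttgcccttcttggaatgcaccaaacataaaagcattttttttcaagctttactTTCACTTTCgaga
No NF-kB or AP-1 match was present in the window searched.

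**Figure D2:**
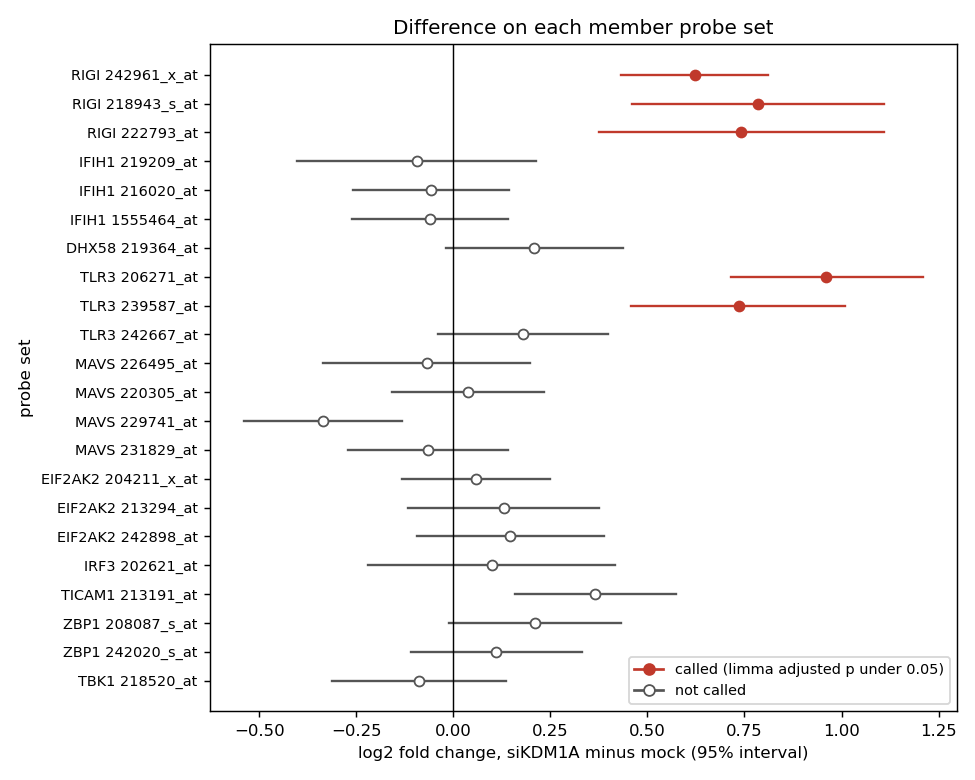
Log2 fold change (siKDM1A minus mock, x axis) with its 95% interval from limma for each of the 22 member probe sets (y axis), filled where called. The 5 called probe sets have values of 0.62 to 0.96, and the 17 others lie between -0.34 and 0.37.

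The other cytosolic helicases gave no call. IFIH1 encodes MDA5, which binds long double-stranded RNA (chr2:162267074-162318684). Its probe set 219209_at had log2 levels of 4.22, 3.76 and 3.73 in siKDM1A cells and 4.06, 3.87 and 4.08 in mock cells, with overlap between the groups. The log2 fold change was -0.09, with a 95% interval of -0.40 to 0.21 (limma adjusted p = 0.777), and both remaining IFIH1 probe sets, at -0.06 each, were below the lower quartile on every array. The interval of 219209_at ends below that of RIGI 242961_x_at (0.43 to 0.81), but the difference between the genes' responses was not itself tested. The levels of 219209_at were below the median on all 6 arrays, and whether they exceeded background hybridization was not tested.

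DHX58 encodes LGP2, a helicase without signalling domains that modulates RIG-I and MDA5 (chr17:42101411-42112714). Its levels were 5.31, 5.49 and 5.54 (log2) in siKDM1A cells and 5.10, 5.30 and 5.31 in mock cells. The highest mock array just exceeded the lowest siKDM1A array, and the log2 fold change of 0.21 (95% interval -0.02 to 0.44) did not pass the test (limma adjusted p = 0.315).

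IFIH1 and EIF2AK2 had the response element core in their promoters and no called probe set, and their sequences are given for comparison with that of TLR3. Both lie on the minus strand, IFIH1 at chr2:162318675-162318854 and EIF2AK2 at chr2:37156971-37157090, and both end 10 bases after the start. The capitals mark the core, which matched 4 times in IFIH1, 3 of them overlapping, and once in EIF2AK2.
IFIH1 promoter: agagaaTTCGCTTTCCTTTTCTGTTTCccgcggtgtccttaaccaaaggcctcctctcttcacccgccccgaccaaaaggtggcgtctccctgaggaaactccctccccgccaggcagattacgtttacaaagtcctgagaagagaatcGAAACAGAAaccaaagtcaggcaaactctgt
EIF2AK2 promoter: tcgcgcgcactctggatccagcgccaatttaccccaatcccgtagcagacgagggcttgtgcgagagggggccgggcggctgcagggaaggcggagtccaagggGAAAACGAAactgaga
The core was thus found in 3 of the 7 member promoters, among them 1 of the 2 genes called. The NF-kB motif was found in RIGI, IFIH1 and TICAM1, and AP-1 in none of the 7.

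None of the 4 members downstream of the sensors, the adaptors TICAM1 and MAVS, the kinase TBK1 and the factor IRF3, passed the test. TICAM1, which encodes the TLR3 adaptor TRIF (chr19:4815932-4831712), had log2 levels of 6.59, 6.40 and 6.43 in siKDM1A cells and 6.20, 6.05 and 6.08 in mock cells. The groups did not overlap. Its log2 fold change of 0.37 (SE 0.0922, 95% interval 0.16 to 0.57) lay just outside the threshold (limma adjusted p = 0.0513), and passed it after cyclic loess, after quantile normalization and with the filter on dim probe sets (limma adjusted p 0.028 to 0.043).

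MAVS, the mitochondrial adaptor of RIG-I and MDA5 (chr20:3846834-3876118), had 4 probe sets, none of them called. On 229741_at the log2 levels were 7.77, 7.67 and 7.83 in siKDM1A cells and 8.19, 8.06 and 8.02 in mock cells, the only member probe set on which all siKDM1A arrays were the lower ones. The log2 fold change was -0.34 (SE 0.0899, limma adjusted p = 0.065), and it passed the threshold with median centring (limma adjusted p = 0.038) and with the filter on dim probe sets (0.034). The probe sets 226495_at and 220305_at had log2 fold changes of -0.07 and 0.04 and 231829_at had -0.06, all with overlapping groups (limma adjusted p 0.769 to 0.863).

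TBK1, the kinase that phosphorylates IRF3 (chr12:64452120-64502114), had log2 levels of 9.23, 9.32 and 9.11 in siKDM1A cells and 9.18, 9.32 and 9.43 in mock cells. The log2 fold change was -0.09, with a 95% interval of -0.31 to 0.14 (limma adjusted p = 0.706). IRF3 itself (chr19:49659572-49665857) had log2 levels of 7.83, 7.75 and 8.32 in siKDM1A cells and 7.89, 7.84 and 7.89 in mock cells. Only siKDM1A replicate c was above the mock range, and without it the log2 fold change of 0.10 (limma adjusted p = 0.773) became -0.078. IRF3 and TBK1 act through phosphorylation, which an mRNA level does not report.

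The remaining sensors, EIF2AK2 and ZBP1, gave no call either. EIF2AK2 encodes PKR, the kinase that phosphorylates eIF2 alpha when it binds double-stranded RNA (chr2:37099210-37156980), and its probe set 204211_x_at had log2 levels of 8.90, 9.05 and 8.93 in siKDM1A cells and 8.87, 8.92 and 8.91 in mock cells. Its 3 probe sets had log2 fold changes of 0.06, 0.13 and 0.15, all with overlapping groups (limma adjusted p 0.521 to 0.776). On 204211_x_at the 95% interval, -0.13 to 0.25, ended below the log2 fold changes of all 3 RIGI probe sets (0.62 to 0.78). The difference between the genes was not tested.

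ZBP1, a sensor of Z-form nucleic acid that can start necroptosis (chr20:57603852-57620426), had log2 levels on 208087_s_at of 4.42, 4.29 and 4.16 in siKDM1A cells and 3.98, 4.16 and 4.10 in mock cells. The groups were separated by 0.00598 on the log2 scale, and the log2 fold change of 0.21 did not pass the test (limma adjusted p = 0.291). The other ZBP1 probe set, with 0.11, was below the lower quartile on all arrays.

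**Figure D3:**
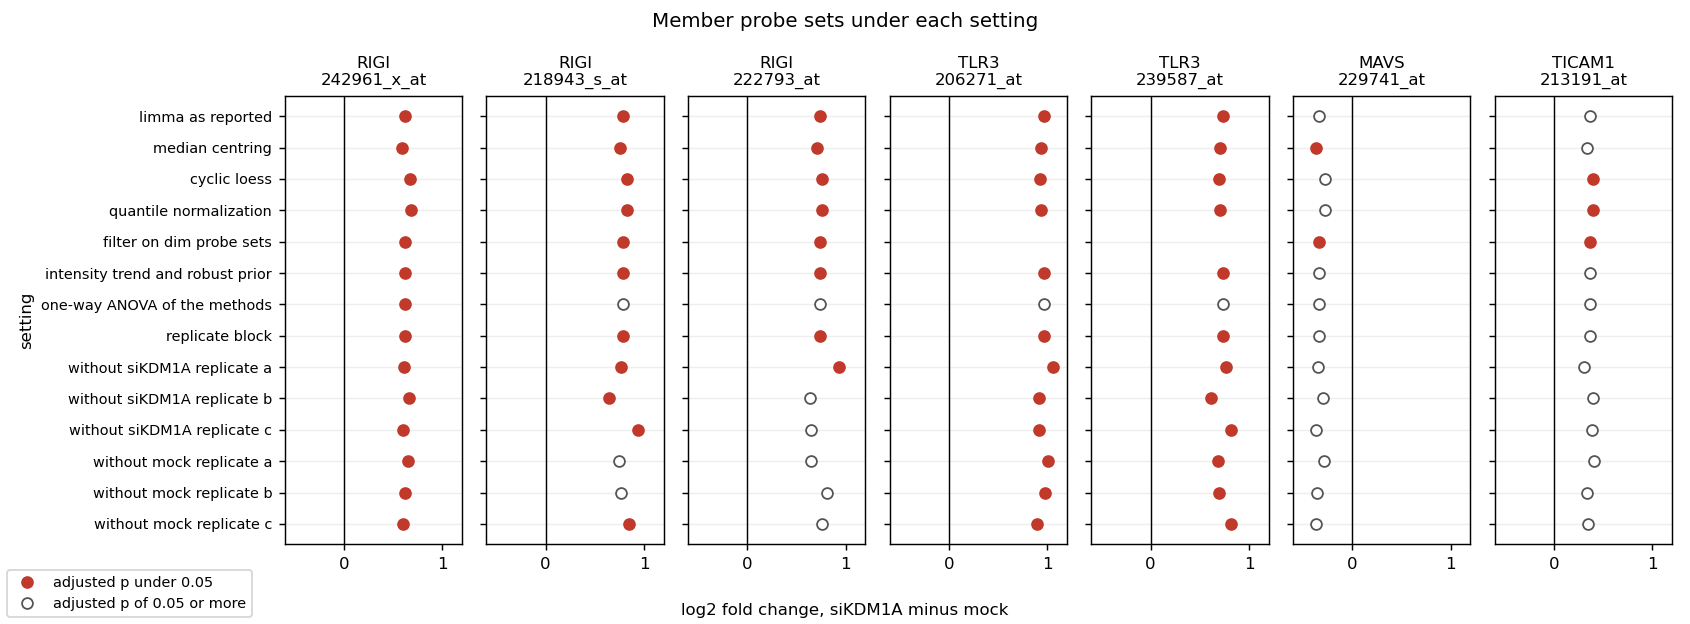
Log2 fold change (siKDM1A minus mock, x axis) of the 5 called member probe sets and of those of TICAM1 and MAVS nearest the threshold, under each setting (y axis), filled where the adjusted p was under 0.05. RIGI 242961_x_at was past the threshold in all 13 alternatives, while the TLR3 probe sets have no value under the filter on dim probe sets.

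The course of RIGI and TLR3 over the 6 arrays was compared with that of every other gene's brightest probe set, after the mock mean had been taken off each. The smallest root mean square differences from RIGI 242961_x_at were those of BHLHE41 (0.044), DNAAF3 (0.0511) and RAC2 (0.0511), and from TLR3 206271_at those of CHIC1 (0.0583), LINC00623 (0.0846) and PRSS3 (0.088), all in log2 units and over 6 arrays. None of these 6 genes stood in the lists around the pathway. The likeness is a description, since any gene with a similar fold change and small spread ranks high.

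To place the members in their pathway, 179 further genes in 10 lists were followed on the brightest probe set of each, of which 170 could be measured. These lists too were chosen with earlier results of these data known. Limma called 15 higher and 2 lower, against 3.45% of all genes called higher and 5.46% called lower by the same rule. With 1 array left out, whichever it was, 7 to 10 were higher and 1 to 2 lower. Where any called probe set of a gene counted, 17 genes were higher and 6 lower. The genes added were PMAIP1 (log2 fold change 0.50, against 0.65 and no call on its brightest) and IFNAR2 (0.41), both higher. Those added as lower were AZI2 (-0.56), IRF5 (-0.45), PPM1A (-0.45 and -0.38) and PRKRA (-0.49). The PRKRA probe set was below the lower quartile on all 6 arrays. On the brightest probe set, the lists closest to the sensors gave no call. None of 21 cofactors and other RNA sensors passed the test (median log2 fold change -0.05, limma adjusted p at least 0.143), nor did any of 6 genes of the OAS and RNase L arm, which degrades RNA (0.04, at least 0.304). The 15 genes that keep endogenous double-stranded RNA in check, such as the editing enzyme ADAR, had a median of -0.11 and 0 calls (limma adjusted p at least 0.0731), and the 6 genes of the death branch downstream of ZBP1 had 0.10 and 0 calls (at least 0.0909). The death branch was open to the processing, with 2 genes called higher after cyclic loess, 2 after quantile normalization and 1 called lower with the filter on dim probe sets, and in the list on endogenous double-stranded RNA 1 gene was called higher with an intensity trend and robust prior.

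Among 25 genes of the kinase complex and of its transcription factors, 3 rose and none fell on the brightest probe set (median 0.01). With median centring, with the filter on dim probe sets, or with an intensity trend and robust prior, 1 was called lower. JUN, a subunit of the AP-1 factor that joins IRF3 on the interferon beta enhancer, had log2 levels of 10.97, 10.96 and 10.92 in siKDM1A cells and 9.55, 9.55 and 9.54 in mock cells. Its log2 fold change was 1.40 (SE 0.0785, limma adjusted p = 4.4e-05), and all 3 of its other probe sets were called higher. TRAF3, an adaptor ubiquitin ligase below MAVS and TRIF, and OPTN, an adaptor of TBK1, had smaller values of 0.44 and 0.37 (limma adjusted p = 0.044 and 0.037). OPTN lost its call whichever array was left out, and TRAF3 in every such fit but the one without siKDM1A replicate a (limma adjusted p 0.072 to 0.133 and 0.104 to 0.15).

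Of 24 negative regulators of sensing, 1 rose and none fell on the brightest probe set (median -0.04). This was TNFAIP3, which encodes the ubiquitin-editing enzyme A20 and is itself a target of NF-kB. The TNFAIP3 log2 levels were 8.93, 9.00 and 8.55 in siKDM1A cells and 7.19, 7.13 and 7.32 in mock cells, a log2 fold change of 1.62 (SE 0.126, limma adjusted p = 0.00022) or 3.07-fold.

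Of 16 genes of the PKR and eIF2 arm, 5 rose and none fell (median 0.10). The largest value was that of ATF3, a stress-induced transcription factor, with log2 levels of 5.94, 6.43 and 6.26 in siKDM1A cells and 5.17, 5.64 and 5.26 in mock cells (log2 fold change 0.85, SE 0.155, limma adjusted p = 0.013). Both other ATF3 probe sets, with 0.11 and 0.06, were not called, and the brightest lost its call without mock replicate c (limma adjusted p = 0.068). PPP1R15A, which encodes the phosphatase subunit GADD34 that reverses eIF2 alpha phosphorylation, DNAJC3, an inhibitor of PKR, and DDIT3, which encodes the stress factor CHOP, were at 0.51, 0.37 and 0.37 on the log2 scale (limma adjusted p 0.039 to 0.0497). TRIB3, a target of CHOP, was the fifth with 0.32 (limma adjusted p = 0.047). The count of 5 fell to between 0 and 2 when any 1 array was left out, being 0 without mock replicate c, and to 2 with median centring.

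The outputs of the pathway were mixed. The list of interferons and direct IRF3 targets held 16 genes, among them the NF-kB target IL6. On the brightest probe set 2 rose and none fell (median 0.12). IFNB1, the type I interferon that these sensors induce, had log2 levels of 3.91, 3.89 and 3.87 in siKDM1A cells and 3.82, 3.87 and 3.72 in mock cells, which did not pass the test (log2 fold change 0.09, limma adjusted p = 0.653). These levels were below the median on all 6 arrays, and whether they exceeded background hybridization was not tested. The calls were IL6, an NF-kB target that codes for interleukin 6 (0.74, limma adjusted p = 0.0013), and CXCL11, a chemokine induced by interferon (0.53, limma adjusted p = 0.043), whose call was lost whichever array was left out (limma adjusted p 0.060 to 0.116). The CXCL11 probe set was below the lower quartile on all 6 arrays.

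Among 12 genes of the interferon receptor and of the ISGF3 complex it activates, none rose and 1 fell on the brightest probe set (median 0.03). With cyclic loess, quantile normalization, the filter on dim probe sets, or an intensity trend and robust prior, 1 gene was called higher. IRF9, the DNA-binding subunit of ISGF3, had log2 levels of 6.27, 6.19 and 6.59 in siKDM1A cells and 7.05, 6.85 and 6.95 in mock cells, without overlap. Its log2 fold change was -0.59 (SE 0.118, limma adjusted p = 0.020), and the gene was not called when siKDM1A replicate a or b, or mock replicate a or c, was left out (limma adjusted p 0.060 to 0.084).

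Of 29 other interferon-stimulated genes 4 rose and 1 fell, while the median was -0.01. IFI44L had log2 levels of 9.29, 9.50 and 9.36 in siKDM1A cells and 7.14, 7.28 and 7.11 in mock cells, a 4.62-fold difference (log2 fold change 2.21, SE 0.0945, limma adjusted p = 1.4e-05). The related gene IFI44 had 1.07 and the guanylate-binding protein gene GBP1 had 1.32 (limma adjusted p = 0.00024 and 0.011), and UBE2L6, the conjugating enzyme for ISG15, had 0.51 (0.036). Without siKDM1A replicate a or c or mock replicate a or b, UBE2L6 was not called (limma adjusted p 0.096 to 0.116). IFITM1, a membrane protein that limits viral entry, went the other way, with log2 levels of 7.75, 7.18 and 7.75 in siKDM1A cells and 9.21, 9.00 and 9.31 in mock cells (log2 fold change -1.61, limma adjusted p = 0.00069). The remaining 24 genes of this list were not called.

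**Figure D4:**
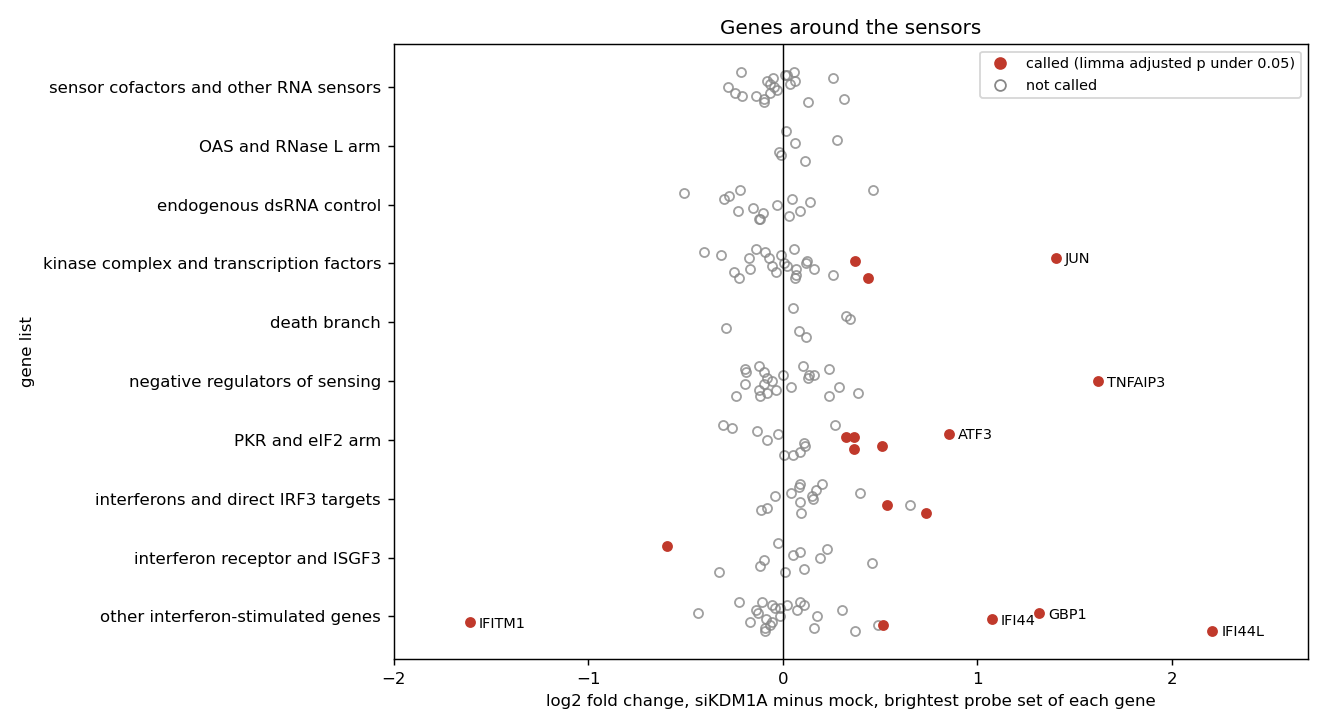
Log2 fold change (siKDM1A minus mock, x axis) of each gene's brightest probe set in the 10 lists around the sensors (y axis), filled where called and named where a called value exceeds 0.8 in size. The lists on cofactors, the OAS arm, control of endogenous double-stranded RNA and the death branch hold open points alone.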

How the data were processed

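RNA of 6 ONS-76 cultures, 3 siKDM1A and 3 mock, was measured on Affymetrix U133 Plus 2.0 arrays. RMA was run by the authors in Partek, with no version given in the sources used here, and the 54675 log2 values per array that they deposited were taken as they stand. RMA gives all arrays a common intensity distribution, so a shift of most genes would be largely removed. Scanner files were not used here. The 62 Affymetrix control probe sets were left out.

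Gene names came from the platform annotation, where 41091 probe sets had 1 gene, 1801 several and 11721 none, and 41037 of the Entrez IDs were in RefSeq GRCh38.p14. Groups were compared two-sided with limma 3.58.1 in R 4.3.3 (lmFit, eBayes). P-values were adjusted by Benjamini-Hochberg over all 54613 remaining probe sets, and 0.05 was the threshold. The fit was tested on simulated data. The members and lists were chosen with earlier results of these data known. Named were all members, KDM1A, KDM5A, IFNB1, up to 4 called genes per list and direction, and the 3 genes nearest in course to each called member. TRIB3, ADAR, the lineage markers and the list genes called only on a probe set other than their brightest were named after their values were seen. Alternatives were median centring, cyclic loess, quantile normalization, leaving out dim probe sets, a trend of variance on intensity with a robust prior, the methods' one-way analysis of variance, a replicate block, leaving out each array, and counting any probe set of a gene.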

Additional observations from a re-analysis of the deposited data

How the results depend on the processing

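All 5 called member probe sets kept their direction under every alternative that tested them. Members called higher numbered 5, but 1 with the methods' ANOVA and 3 to 5 when 1 array was left out, and members called lower numbered 0, but 1 (MAVS 229741_at) with median centring and 1 with the filter on dim probe sets. Among the other lists 15 genes were higher, but 6 with the ANOVA and 7 to 10 without 1 array. Lower were 2, but 4 with the filter on dim probe sets, 4 with an intensity trend and robust prior, 0 with the ANOVA, 6 if any probe set of a gene counted and 1 to 2 without 1 array. Over all probe sets the ANOVA called 275 higher and 401 lower, against 1193 and 2037 with limma, and leaving out 1 array gave 609 to 1103 higher and 694 to 1563 lower. The fits without 1 array had fewer samples, and the cause of the other shifts was not tested. Signs turned for values near 0 alone: without 1 array MAVS 226495_at ranged from -0.179 to 0.0101, MAVS 220305_at from -0.00974 to 0.0719 and IRF3 from -0.0781 to 0.208. TICAM1 passed the threshold in 3 alternatives.

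The deviations of same-lettered arrays correlated at 0.11, 0.23 and -0.13, which does not settle whether the replicate letters pair the samples. With the letters as a replicate block, members called higher stayed at 5 and lower at 0, while the other lists gave 10 higher and 2 lower and all probe sets 1080 higher and 1639 lower, and 2 of 3 siKDM1A arrays correlated best with their own letter. Calls lower made up 63.1% of all calls, 70% with median centring and 54.8% with cyclic loess. Levels below the lower quartile, among them both mock groups of TLR3, may be background, and 3 arrays per group limit what small differences can show.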
